A study of Arabidopsis thaliana with 6 samples.

Results

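The genes described here are 10 loci of the PTI1-like family of cytoplasmic protein kinases of Arabidopsis thaliana, read in roots. The loci were taken from a list built around AT2G30730. AT2G30730 was chosen by its lower values in thiosulfate in an earlier look at these arrays, and of a gene's rows the one with the highest mean was to be used. All 10 listed genes were measured, with 1 row of the array each, among 16548 named genes tested. The gene tables used here name AT2G47060 as PTI1-4 (Pto-interacting 1-4) and list the other members by locus alone, so their place in the family rests on the list.

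Expression was measured on 6 one-colour Affymetrix arrays of wild-type Col-0, the standard laboratory accession, with no mutant or transgene in either group. Plants were 8 weeks old and stood at 22 °C in hydroponic culture under short days, in MGRL medium with chloride in place of sulfate. The sulfur source was 300 µM sodium sulfate for one group and 150 µM sodium thiosulfate for the other, with 3 arrays each from samples called biological replicates. The labels do not say whether a sample pooled several plants. The comparison asks how root transcripts differ when the sulfur source is thiosulfate, which carries more sulfur atoms per ion than sulfate and holds them in a more reduced form.

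PTI1 was found in tomato as a kinase that interacts with, and is phosphorylated by, the resistance kinase Pto. PTI1-like kinases have a kinase domain but no receptor part, and stand inside the cell below other kinases. In Arabidopsis, members of the family are known to act below the oxidative signal-inducible kinase OXI1, below receptor kinases that watch over the cell wall of root hairs and pollen tubes, and with receptors of abscisic acid. These roles are background and were not measured here.

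The array medians, taken over 38408 rows, were 2.35 to 2.38 for sulfate and 2.41 to 2.48 for thiosulfate (log2). Every thiosulfate median thus lay above every sulfate median. Between arrays of 1 group the gene values correlated at 0.980 to 0.983, and between arrays of different groups at 0.974 to 0.982. For a typical gene the 95% interval of the log2 change reached 0.39 to each side, and with 3 arrays per group this limits the precision. Of the root markers, PYK10, a beta-glucosidase abundant in roots, stood at a log2 level of 8.96 ± 0.45 in sulfate and 9.71 ± 0.59 in thiosulfate (SD, n = 3 each), with overlapping groups. Its log2 change of 0.76 (95% interval 0.06 to 1.46) was the largest among the measured markers, with an unadjusted limma p of 0.037 and an adjusted p of 0.46. The root hair expansins EXPA7 and EXPA18 had log2 changes of 0.25 (95% interval -0.30 to 0.81) and 0.31 (-0.30 to 0.92). They were the measured 2 of 6 root hair markers. For dividing cells the Aurora kinases AUR1 and AUR2 had log2 changes of 0.01 and 0.21 (2 of 4 markers measured). For green tissue the antenna protein gene LHCB4.1 had -0.21 and the Rubisco activase gene RCA -0.09 (2 of 4 measured). None of these 7 markers passed the limma test over all genes. Markers of the non-hair epidermis, endodermis, xylem, phloem and root cap were not analysed here. In whole roots, fewer cells of a type and less RNA per cell cannot be told apart.

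None of the 9 relatives of AT2G30730 passed the test of thiosulfate against sulfate (limma, Benjamini-Hochberg adjusted p under 0.05 over all 16548 genes), where 2 genes did, or 0.0121% of those tested. At an unadjusted p under 0.05 the count was 1 of the 9 relatives, against 10.0% of all genes, or 4.64% counting only those lower in thiosulfate, the direction of that relative. A fit of the same arrays with no shared variance called 0 of the 16548 genes, so its lack of calls says nothing about the relatives in particular. The log2 changes of the relatives ran from -0.59 to 0.31.

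AT2G30730 itself was dim. Its log2 values were 1.77, 1.87 and 2.08 on the sulfate arrays and 0.97, 1.01 and 1.12 on the thiosulfate arrays. Every thiosulfate array lay below every sulfate array, with a gap of 0.65 between the nearest arrays of the groups. The means were 1.91 ± 0.15 in sulfate and 1.04 ± 0.08 in thiosulfate (SD, n = 3 each), so the log2 change was -0.87. This change is the value for which the gene was chosen, and it is given as a description with no test. The mean over the 6 arrays stood at percentile 31.5 of all genes tested, and the thiosulfate mean was close to 0.99, the median in the dimmest bin when genes are split by level into 5 equal bins. With no detection call or background bound, the change is a difference between listed values and not a measured fold.

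**Figure D1:**
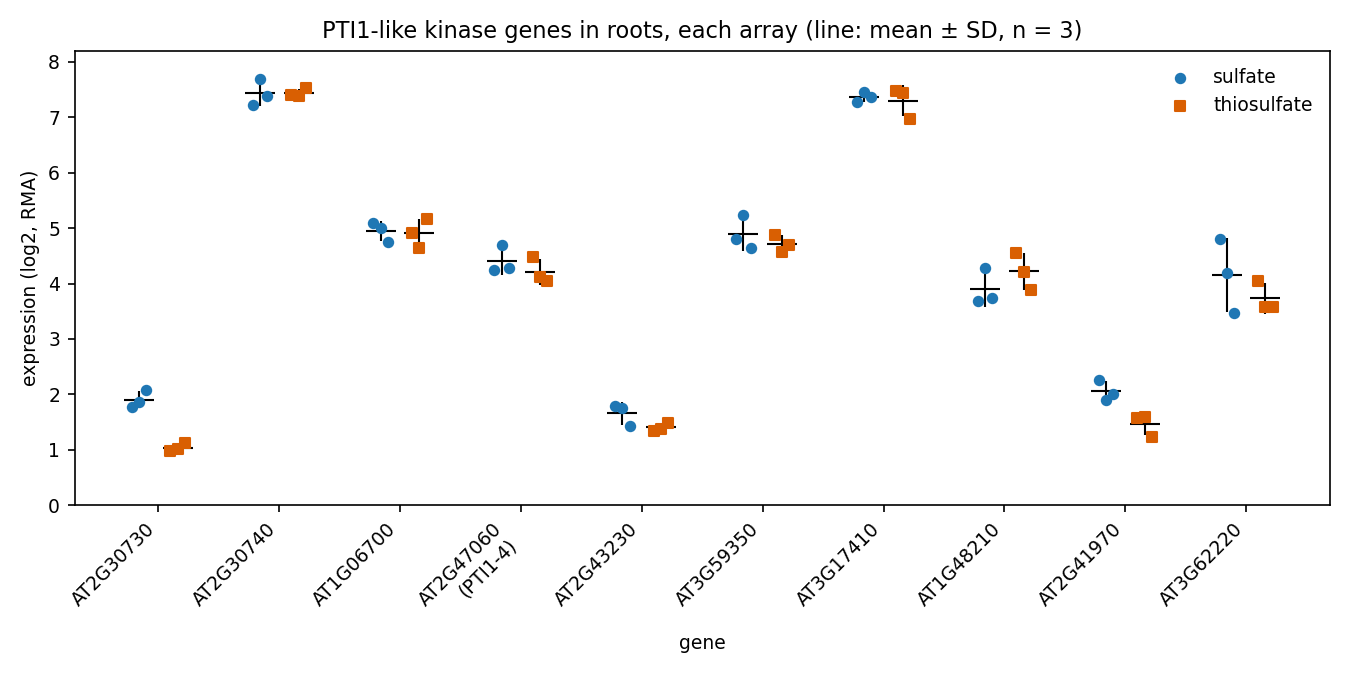
Log2 RMA expression (vertical axis) of each PTI1-like kinase gene (horizontal axis) on the 3 sulfate arrays (circles) and the 3 thiosulfate arrays (squares), with horizontal lines for group means and vertical lines for SD. The groups stand apart for AT2G30730, which was chosen for its change, and for AT2G41970, and overlap for the other 8 genes. Over all genes tested, the groups stand apart in either direction for 14.7%.

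The next annotated gene on chromosome 2, the family member AT2G30740, gave one of the brightest rows of the array, at percentile 98.2 of the genes tested. AT2G30740 read 7.23, 7.69 and 7.39 in sulfate and 7.40, 7.38 and 7.52 in thiosulfate (log2). The thiosulfate values all fell inside the range of the sulfate values. The log2 change was -0.0023 (SE 0.16, 95% interval -0.36 to 0.36), with a limma adjusted p of 0.998. The changes of the 2 adjacent genes thus differed by 0.87 on the log2 scale, a difference that was not tested because AT2G30730 was chosen for its change. Probe sets differ in how they respond to a transcript, so listed levels do not rank the amounts of different transcripts. Whether the probes of either gene also bind the transcript of the other was not tested.

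Of the 10 annotated genes nearest to AT2G30730, 5 on each side, 6 were measured, and none passed the limma test. AT2G30720, next on the other side, had a log2 change of -0.33 (95% interval -0.78 to 0.11). Beyond it AT2G30710 had a change of 0.26 (-0.10 to 0.61), with every thiosulfate array above every sulfate array by a gap of 0.05. Over all genes, 14.7% had groups that stood apart in either direction. For the remaining neighbours the log2 changes were 0.10 for AT2G30700, -0.35 for the dim AT2G30695 and -0.16 for AT2G30690, with overlapping groups. On the side of AT2G30740 it alone was measured, as AT2G30750, AT2G30760, AT2G30766 and AT2G30770 were not analysed here. The changes of the measured genes around AT2G30730 lay on both sides of 0.

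**Figure D2:**
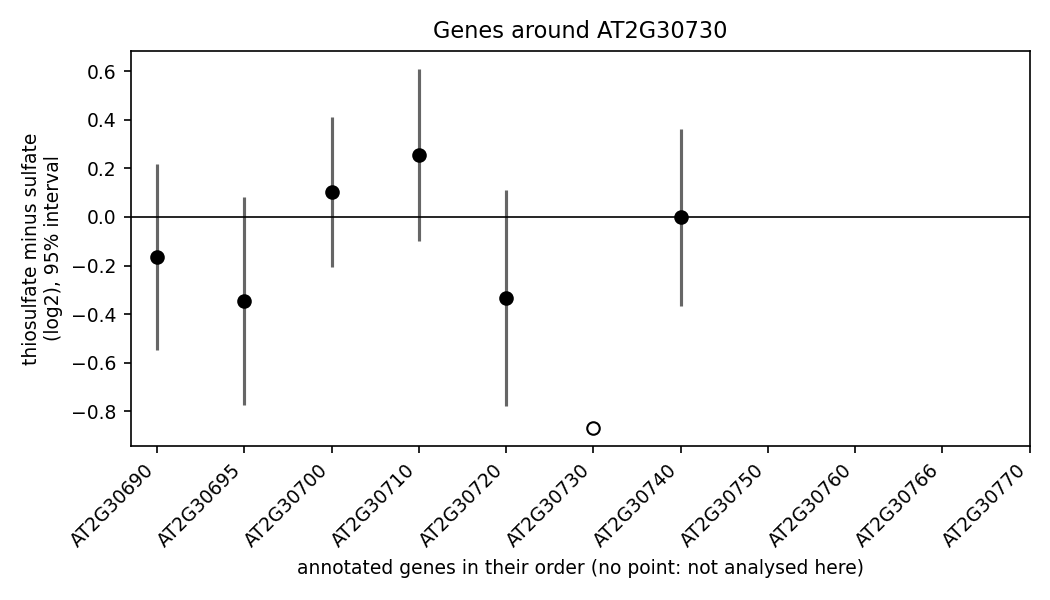
Log2 change, thiosulfate minus sulfate, with its 95% interval (vertical axis) for AT2G30730 (open point, no interval) and the measured genes among the 5 annotated genes on each side, in chromosome order (horizontal axis). The intervals of all 6 measured neighbours include 0, and AT2G30740 sits at -0.0023.

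The second member whose groups did not overlap was AT2G41970, which was dim as well. Its log2 values were 2.26, 1.91 and 2.004 in sulfate and 1.57, 1.60 and 1.23 in thiosulfate. All thiosulfate arrays lay below all sulfate arrays, with a gap of 0.31. The means were 2.06 ± 0.18 and 1.46 ± 0.20 (SD, n = 3 each), a log2 change of -0.59 (SE 0.17, 95% interval -0.97 to -0.21). With a limma adjusted p of 0.32 over all genes AT2G41970 did not pass, and its unadjusted p was 0.0062. Groups stood apart for 14.7% of all genes, and with thiosulfate lower for 7.57%, so 1 relative of 9 is near the background.

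AT2G43230 was the other dim member. It read 1.79, 1.75 and 1.42 in sulfate and 1.34, 1.38 and 1.49 in thiosulfate (log2). Sulfate replicate 3 fell among the thiosulfate arrays, while the other sulfate arrays lay above them. The log2 change of AT2G43230 was -0.25 (95% interval -0.60 to 0.10, limma adjusted p = 0.63).

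AT2G30730, AT2G43230 and AT2G41970 all fell in the second of 5 equal bins of genes by mean level, which runs from 1.18 to 1.80 on the log2 scale and holds 3309 genes. That bin as a whole leaned toward lower values in thiosulfate. Its median change was -0.10, against -0.016 over all genes, and 66.7% of its genes had a lower mean in thiosulfate, against 52.9% of all genes. Within the bin the groups stood apart with thiosulfate lower for 10.7% of genes, and 6.77% had an unadjusted limma p under 0.05 in that direction. The part of this lean in the members' changes was not tested. No other member lay in the bin.

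**Figure D3:**
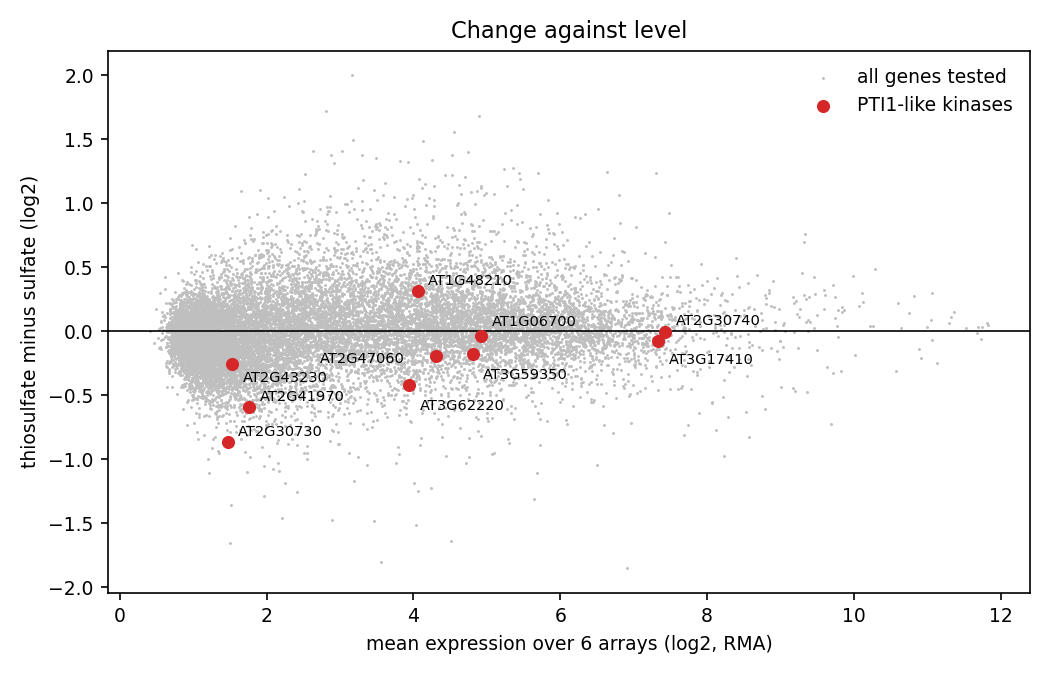
Log2 change, thiosulfate minus sulfate (vertical axis), against the mean log2 expression over the 6 arrays (horizontal axis) for all 16548 genes tested (grey) and the PTI1-like kinases (red, labelled). AT2G30730, AT2G41970 and AT2G43230 lie at the dim end and below 0, and AT2G30740 and AT3G17410 lie at the bright end near 0.

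PTI1-4 (AT2G47060), the member that the gene tables name after Pto-interacting kinases, stood above the median level, at percentile 74.2 of the genes tested. It read 4.24, 4.70 and 4.29 in sulfate and 4.47, 4.11 and 4.04 in thiosulfate (log2). Sulfate replicate 2 was its highest array, and the groups overlapped. The log2 change of PTI1-4 was -0.20 (SE 0.18, 95% interval -0.61 to 0.22, limma adjusted p = 0.77).

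AT3G59350 showed a similar size of change, -0.18 on the log2 scale (95% interval -0.60 to 0.24, limma adjusted p = 0.80). Its values were 4.80, 5.24 and 4.64 in sulfate and 4.88, 4.57 and 4.69 in thiosulfate. Here too sulfate replicate 2 was the highest array, as it was for AT2G30740, and no member was lowest on it. AT1G06700 read 5.09, 5.005 and 4.74 in sulfate and 4.92, 4.64 and 5.16 in thiosulfate. Its thiosulfate arrays reached both below and above all sulfate arrays, and the log2 change was -0.04 (95% interval -0.44 to 0.36, limma adjusted p = 0.96).

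AT3G17410 was the second of the bright members, at percentile 98.0 of the genes tested. It read 7.28, 7.46 and 7.37 in sulfate and 7.48, 7.44 and 6.97 in thiosulfate (log2). Thiosulfate replicate 3 alone lay below the sulfate arrays. The log2 change of -0.07 (95% interval -0.46 to 0.32, limma adjusted p = 0.92) turned to 0.09 without that array.

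AT1G48210 was the single member with a higher mean in thiosulfate. It read 3.69, 4.28 and 3.75 in sulfate and 4.55, 4.21 and 3.89 in thiosulfate (log2). Sulfate replicate 2 lay above 2 of the thiosulfate arrays, so the groups overlapped. The log2 change was 0.31 (SE 0.22, 95% interval -0.19 to 0.81, limma adjusted p = 0.68).

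AT3G62220 varied most between arrays of 1 group. Its values were 4.81, 4.19 and 3.47 in sulfate and 4.05, 3.57 and 3.58 in thiosulfate (log2). The highest and the lowest array were both sulfate arrays. Its residual SD of 0.51 stood at percentile 96.8 of all genes. The log2 change of -0.42 (95% interval -1.11 to 0.27, limma adjusted p = 0.69) was -0.10 without sulfate replicate 1 and -0.77 without sulfate replicate 3.

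**Figure D4:**
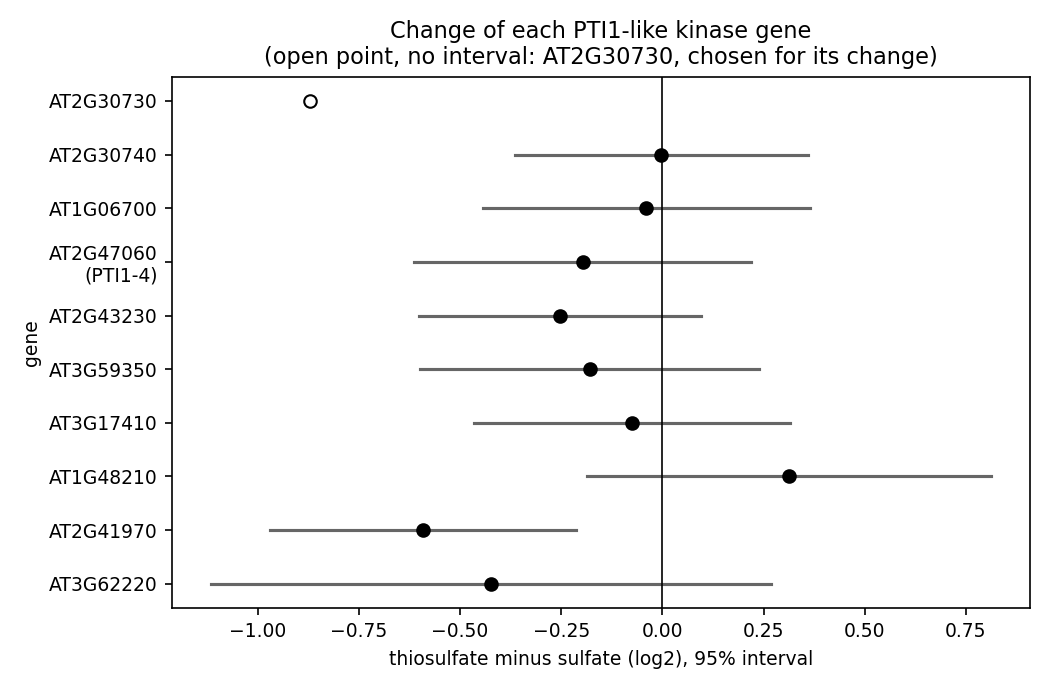
Log2 change, thiosulfate minus sulfate, with its 95% interval (horizontal axis) for each PTI1-like kinase gene (vertical axis), and AT2G30730 as an open point with no interval. Of the 9 relatives of AT2G30730, 8 have intervals that include 0, and AT2G41970 lies below 0 at -0.59.

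Across the 9 relatives of AT2G30730 the median log2 change was -0.18, against -0.016 over all genes, and 8 had a lower mean in thiosulfate. The share of lower means over all genes was 52.9%. Several of these differences were small against their error. The direction of AT2G30740, AT1G06700 or AT3G17410 turned when 1 array was left out, and the median moved to -0.03 without sulfate replicate 2. For 8 of the 9 relatives the 95% interval stayed within 1 of 0 on the log2 scale, which leaves out a change of the listed values by 2-fold, and the exception was AT3G62220. The same held for 92.7% of all genes, and for a dim gene it does not leave out such a change in its transcript.

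Over the 6 arrays the genes whose values followed AT2G30730 most closely were AT1G52000 (Pearson's r 0.996), AT1G66245 (0.990), AT1G04985 (0.989), AT5G55507 (0.987) and AT3G19880 (0.986). These r values describe the 6 arrays only, and since AT2G30730 splits by group, they pick genes that split the same way. Of the 5, 4 were dim, as AT2G30730 was. The other, AT1G04985, was bright, at 7.41 ± 0.05 in sulfate and 7.06 ± 0.02 in thiosulfate (log2, SD, n = 3 each). None of the 5 passed the limma test over all genes, where their smallest adjusted p was 0.31 (AT3G19880). Among the relatives r with AT2G30730 ran from -0.56 for AT1G48210 to 0.79 for AT2G41970.

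Of 20 genes listed as possible partners of the family, among them upstream kinases, cell wall receptors and oxidases, 6 were measured. Whether each of them acts with PTI1-like kinases was not tested. None passed over all genes in either direction, 3 had a higher and 3 a lower mean in thiosulfate, and the median log2 change was 0.04. THE1, which encodes the receptor kinase THESEUS1 that responds to damage of the cell wall, read 3.73, 3.89 and 3.57 in sulfate and 4.71, 4.34 and 4.15 in thiosulfate. All its thiosulfate arrays lay above all sulfate arrays, and the log2 change was 0.67 (SE 0.18, 95% interval 0.26 to 1.08, limma adjusted p = 0.31). Groups stood apart, in either direction, for 14.7% of all genes. FER, which encodes FERONIA, the receptor kinase for RALF peptides, was bright and had a log2 change of -0.0014 (95% interval -0.40 to 0.40). ANX1 and ANX2, the ANXUR receptor kinases of the pollen tube, were dim, at mean log2 levels of 1.18 and 0.87, and had changes of 0.07 and -0.0079. AT4G13000 and AT3G10540, listed among the upstream kinases, had log2 changes of -0.38 (95% interval -0.73 to -0.02, limma adjusted p = 0.46) and 0.09 (-0.37 to 0.55). The first was dim, with groups apart by 0.04. OXI1, MPK3 and MPK6 were not analysed here, nor was any of the 20 listed abscisic acid receptors and core signalling genes.

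The RLCK VII kinases, another family of cytoplasmic kinases that includes BIK1 of immune signalling, served for comparison, with 14 of 24 listed genes measured. None passed over all genes, 9 had a higher and 5 a lower mean in thiosulfate, and the median log2 change was 0.08 in a range from -0.72 to 0.52. The 3 with the smallest p were AT5G47070 (log2 change -0.72, 95% interval -1.06 to -0.39, limma adjusted p = 0.27), AT3G01300 (0.49, adjusted p = 0.32) and AT4G17660 (-0.51, adjusted p = 0.40). BIK1 had a change of 0.23 (95% interval -0.22 to 0.68). Whether the medians of the RLCK VII and PTI1-like lists differ was not tested. Of 11 listed RLCK XII kinases none had a row named with 1 gene, and these were not analysed here.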

How the data were processed

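The deposited values are log2 expression per transcript cluster, made by the authors with RMA in Transcriptome Analysis Console 4.0, per the submitters' processing notes. RMA corrects background, normalizes quantiles and summarises probes. The array's build is not given in the sources used here. Of 38408 rows, 16722 had 1 gene in the platform annotation, 759 had several and 20927 were not listed. Genes called measured are those with a row of 1 gene. Whether other genes lie on the remaining rows was not tested. Symbols were updated by gene identifier through RefSeq (16574 rows), which also gave gene order. For the 148 genes with several rows the highest-mean row was used, leaving 16548 genes.

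Changes (thiosulfate minus sulfate) were fitted with limma 3.58.1 (R 4.3.3) over all 16548 genes, two-sided, with Benjamini-Hochberg adjustment and a threshold of 0.05. The fit was also run on simulated data as a check of the code, which does not show how well small changes are found. Tables and plots used Python 3.11.15, pandas 2.3.3 and matplotlib 3.10.9. Replicates are called biological in the labels, and separate cultures are not stated, so a p-value here covers only the spread among these arrays, which may be technical. Named were every member and measured partner, the 3 smallest p of each RLCK list, 5 annotated genes on each side, and the 5 genes of highest Pearson's r. BIK1 was named beside this rule, as the family's example. Members and lists were chosen with earlier results of these data known. No slide or scan date was given to test as a batch. Sequences were not used here. Alternatives covered normalization, dim-gene filters, row choice, variance model, array weights, a replicate block, each array left out and thresholds.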

Additional observations from a re-analysis of the deposited data

How the results depend on the processing

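No relative of AT2G30730 passed at an adjusted p of 0.05 in any of the 16 other fits. The fit without genes below the median level held only 7 relatives, leaving out AT2G41970 and AT2G43230. At an adjusted p under 0.1 in the main fit no relative passed, and 3 of all genes did. At an unadjusted p under 0.05 the count was 1660 genes, or 10.0%, and 2 members, of which AT2G30730 was chosen for its change, leaving 1 of 9 relatives. The count of 2 genes over the whole table became 0 when every row was tested, with no shared variance and with the replicate number as a block, 1 when genes below the median level were left out, and 0 to 2 with 1 array left out. As the fit with the replicate block called 0 genes, its lack of calls says nothing about the relatives in particular. Arrays of equal number, once centred on their group, had correlations of 0.056, -0.025 and -0.032, and not every array correlated best with its own number, so the arrays were not taken as pairs. Without sulfate replicate 3, AT2G43230 and AT3G62220 also had an unadjusted p under 0.05, making 3 of 9 relatives, against 7.90% of all genes in that fit. AT2G30730 ran from -0.94 to -0.78 (log2 change) and AT2G41970 from -0.67 to -0.47 over all alternatives that kept them, and neither lies above the median level of genes. With 1 array left out the change of AT2G30740 ran from -0.11 to 0.12, that of AT1G06700 from -0.168 to 0.0942 and that of AT3G17410 from -0.166 to 0.0882, the median of the relatives from -0.26 to -0.03, and 6 to 8 of them lay lower. With arrays centred on their medians, the median log2 change was -0.25 for the relatives and -0.087 over all genes. In the main fit these medians were -0.18 and -0.016. Changes of dim genes are limited by the lack of a background bound.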
